A study of Mus musculus with 20 samples.

Results

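The genes of the mitochondrial respiratory chain and ATP synthase were followed through dendritic cell development in mouse. They were taken by symbol: genes whose name on the array platform begins with Nduf, Uqcr, Atp5, Cox4, Cox5, Cox6, Cox7 or Cox8, together with Sdha, Sdhb, Sdhc and Sdhd. This gave 90 of the 18194 genes with a singly named probe set, each represented by the probe set whose mean on the 20 arrays was highest. By role, 34 encode subunits of complex I, 4 of complex II, 8 of complex III, 19 subunits or relatives of complex IV and 17 of ATP synthase (complex V), and 8 (the Ndufaf genes) are assembly factors of complex I. A further 8 matching symbols, among them the complex I subunits Ndufa11 and Ndufs6, stood only on probe sets shared with other symbols and were left out, and Cox7b was not analysed here.

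Complexes I and II pass electrons from NADH and succinate to ubiquinone, complex III passes them to cytochrome c, and complex IV (cytochrome c oxidase) to oxygen. The proton gradient built by complexes I, III and IV drives ATP synthase. All genes here are nuclear. Several complex IV subunits exist as isoforms from separate genes, such as the widely expressed Cox6a1 and its counterpart of heart and skeletal muscle, Cox6a2.

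The 20 Affymetrix Mouse 430 2.0 arrays, a pair for each group, carried RNA from C57BL/6 mouse cells. The groups labelled by a one-cycle kit from 1 µg of RNA were multipotent progenitors (MPP) and common progenitors of dendritic cells (CDP), both amplified in culture from bone marrow, and the conventional (cDC) and plasmacytoid (pDC) dendritic cells grown from amplified progenitors. A second series of cultured CDP, labelled from 250 ng with a 3′ IVT kit, was untreated (0 h) or given TGF-β1 for 4, 8, 12 or 24 h. CDP taken from bone marrow without culture (in vivo CDP) were labelled from 50 ng with the 3′ IVT kit after extraction with a micro-scale kit. The series has no untreated culture at a later hour, so TGF-β1 and hours in culture cannot be told apart. Nothing in the labels says that the 2 arrays of a group came from separate cultures or mice, so p-values measure only the spread between these arrays, which may be technical. In these bulk samples, fewer cells of a type and less RNA per cell cannot be told apart. Precision is limited by having 2 arrays in a group.

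The labels were checked against markers. All 8 cDC markers lay above 5 (log2) on both cDC arrays, against 4 on both pDC arrays and 1 on both CDP arrays. Of 7 pDC markers 6, without Klk1, did so in pDC but also in cDC, where their summed level was 12.9 to 13.2 against 16.2 to 16.5 in pDC. The 4 progenitor markers (Flt3, Csf1r, Csf2ra and Cx3cr1) lay above 5 in all 5 groups and so do not tell CDP from the rest. The progenitor gene Kit was higher in cDC (11.31 and 10.89) than in CDP (4.75 and 5.32), as was Cd48 (12.63 and 12.63 against 11.13 and 10.67). Other listed stem and progenitor markers were lower in cDC: Cd34 (6.10 and 7.25 against 9.17 and 9.16), Mpo (2.70 and 2.80 against 8.60 and 8.60) and Gfi1 (2.34 and 2.32 against 5.94 and 6.38). Sox4 overlapped between the groups. On replicate 1 of 4, 12 and 24 h the 5′ signal was low: Gapdh probe sets at the 3′ end exceeded those at the 5′ end by 2.09 to 2.78 log2 units, against 0.01 to 0.10 on the other arrays of the TGF-β1 series. Values on the TGF-β1 arrays also ran higher, with a median over all genes of 6.34 to 6.45 against 3.52 to 3.75 in the other groups. The lowest value was held by 0.002% of probe sets on each of them, against 33.7% to 35.5% on the others. Whether the 2 sets were processed in the same run is not recorded, so levels are not compared between them. Cd3e, a T cell gene, measured 5.49 to 5.98 on the TGF-β1 arrays and 2.25 in the other groups. A value above 5 in that series thus need not mean expression.

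Most of these genes were strongly measured in every cell type. Above 5 on both arrays were 83 of 90 in MPP, 82 in CDP, 81 in cDC, 82 in pDC and 83 in in vivo CDP, or 90% to 92.2%, against 43.1% to 45.4% of all genes. The 7 that were above 5 on fewer than 2 of the 8 one-cycle arrays, and were not tested there, were Cox4i2, Cox7a1, Cox7b2, Cox8b, Cox8c, Ndufa4l2 and Ndufb4. Apart from Ndufb4, an accessory subunit of complex I, these are isoforms or relatives of complex IV subunits known from lung, muscle, testis or hypoxic cells. Cox4i2, Cox7b2, Cox8c and Ndufa4l2 stood at 2.25, the lowest value on these arrays, in all 10 arrays of these 5 groups. The median of the members' group means was 11.62 in MPP, 11.42 in CDP, 11.48 in in vivo CDP, 10.79 in cDC and 10.92 in pDC.

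Subunit genes differed little between CDP and MPP. In the limma fit to the 8 one-cycle arrays, 1 of the 83 tested members was higher in CDP and 1 lower, with a median difference of -0.08 log2 units. Over all 8901 genes tested, 3.99% were called higher and 3.52% lower, 7.50% in all, at an adjusted p (Benjamini-Hochberg) under 0.05, with a median of -0.00. Both called members encode isoforms of complex IV subunits. Leaving out MPP replicate 2 left neither called, and leaving out CDP replicate 1 or MPP replicate 1 left 1. Markers of other cells moved too: the summed level of 8 granulocyte markers was 16.5 to 16.8 in MPP and 14.2 to 14.8 in CDP, with 8 and 5 above 5 on both arrays. That of 5 mast cell and basophil markers was 12.2 to 12.3 in MPP (5 above 5) and 7.02 to 7.45 in CDP (1 above 5). Their part in the result was not tested.

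Cox6a2 was the higher one. It measured 9.0 and 7.24 in MPP and 12.24 and 10.95 in CDP, so the groups did not overlap, but replicates lay over 1 log2 unit apart in each. The difference of 3.48 ± 0.621 (SE, 2 arrays per group) is 11.1-fold (limma, adjusted p = 0.0180). The lower one was Cox6b2, the counterpart of Cox6b1 known from testis. It measured 6.17 and 5.83 in MPP and 3.14 and 2.78 in CDP, where both arrays were under 5, so the level in MPP was at least 2.00-fold higher (limma, adjusted p = 0.000423 for the difference in deposited values). The widely expressed partners did not pass the test: Cox6a1 measured 14.77 and 14.72 in MPP and 14.56 and 14.79 in CDP, and Cox6b1 differed by -0.17 ± 0.229.

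**Figure D1:**
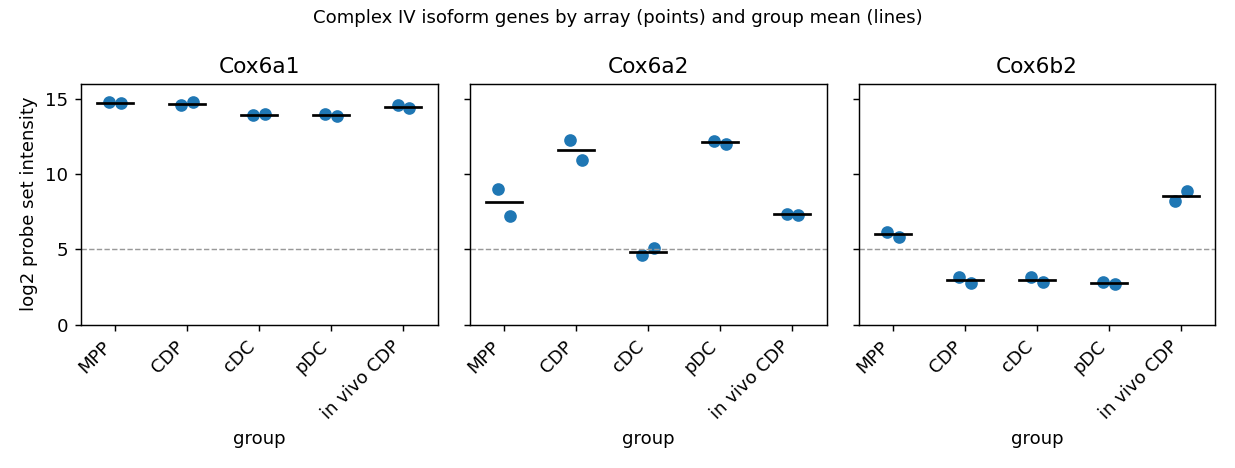
Log2 probe set intensity (vertical axis) of the complex IV genes Cox6a1, Cox6a2 and Cox6b2 in the 5 groups MPP, CDP, cDC, pDC and in vivo CDP. Points are arrays, lines are means of 2, and the dashed line marks 5. Cox6a1 stays between 13.85 and 14.79, while Cox6a2 runs from 4.62 in a cDC array to 12.24 in a CDP array and Cox6b2 is above 5 only in MPP and in vivo CDP.

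In both kinds of dendritic cell the subunit genes were mostly lower than in CDP. In cDC, 45 of the 83 tested members fell and 4 rose, with a median of -0.64. This is 54.2% lower, against 29.3% of all genes tested, and 4.82% higher, against 18.7%, with 48.0% of all genes called in either direction. The median over all genes was -0.16. In pDC, 41 of 83 fell and 3 rose, with a median of -0.63, or 49.4% lower against 31.6% of all genes and 3.61% higher against 21.7%, and a median over all genes of -0.14. Calls in either direction were 53.0% of members and 53.2% of all genes in pDC, so the members differed from the background in direction and not in the number called. Both comparisons share the CDP arrays.

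**Figure D2:**
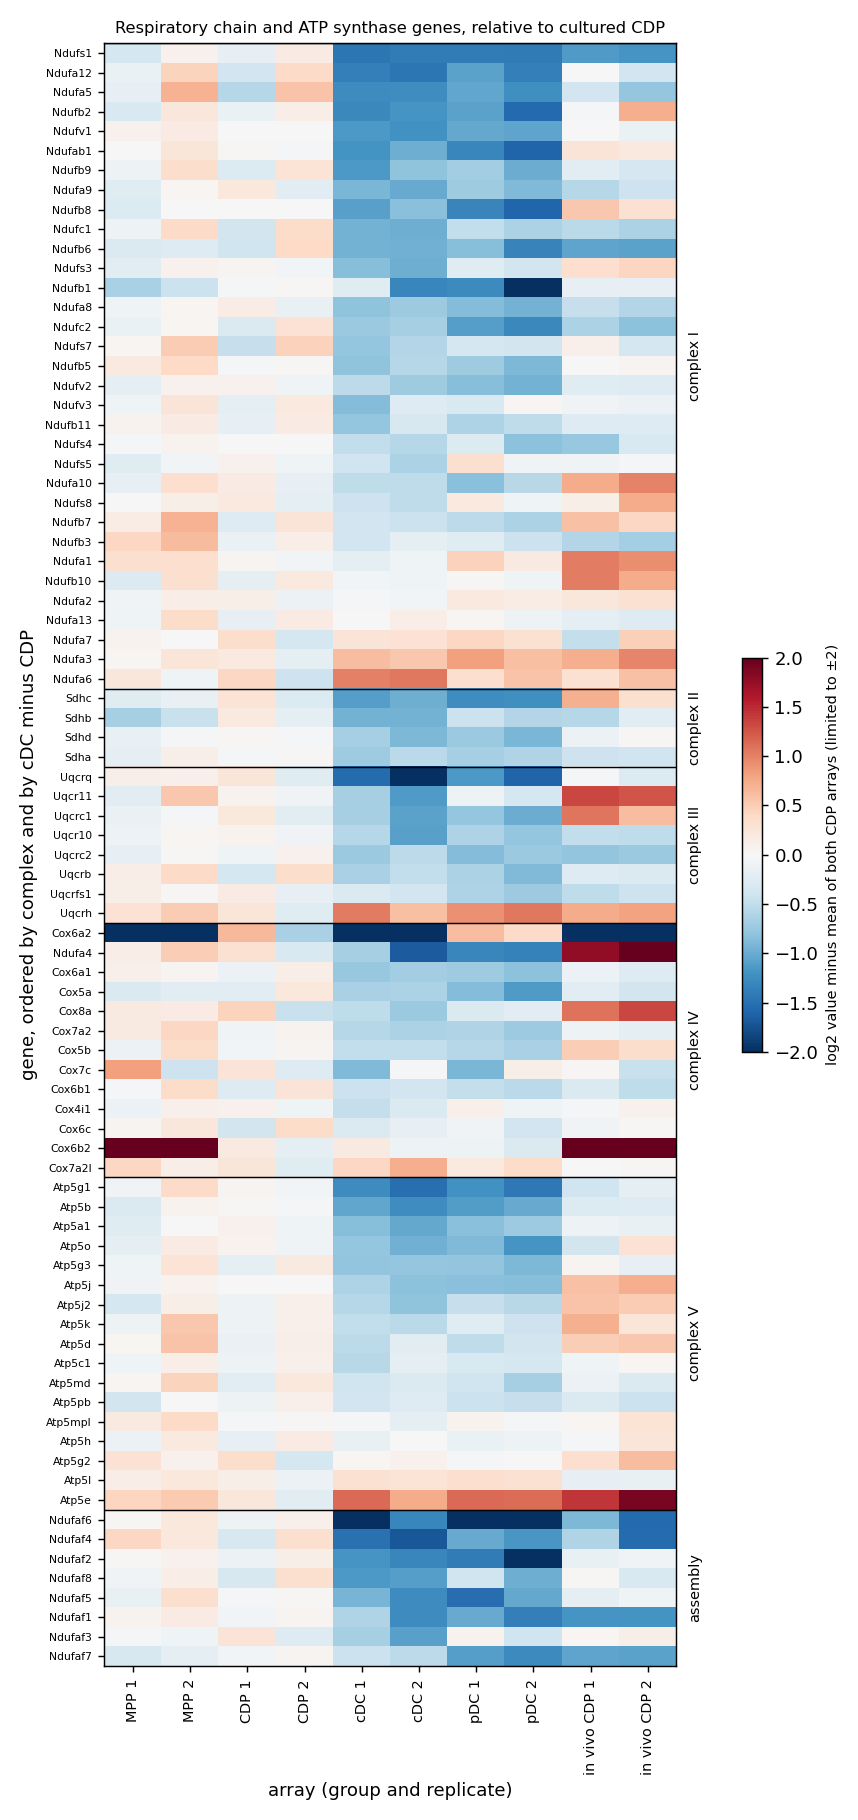
Difference of each tested member (rows, by complex and then by cDC minus CDP) from the mean of both CDP arrays, in log2 units limited to ±2, on the 10 arrays of MPP, CDP, cDC, pDC and in vivo CDP (columns). The cDC and pDC columns are blue in most rows of every complex (medians -0.64 and -0.63), with Ndufa3, Uqcrh and Atp5e red in both, and the in vivo columns hold both colours.

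Complex I, which takes electrons from NADH, had 16 of 33 tested subunits lower and 2 higher in cDC (median -0.68), and 15 lower and 1 higher in pDC (median -0.58). Among its core subunits, most of which carry the flavin or iron-sulfur clusters, 4 of 6 fell in cDC and 3 of 6 in pDC. Ndufs1, the largest of these, measured 10.52 and 10.84 in CDP, 9.23 and 9.28 in cDC, and 9.28 and 9.26 in pDC. Both dendritic cell groups lay below both CDP arrays, by 1.42 ± 0.207 in cDC (limma, adjusted p = 0.00193) and 1.41 in pDC (limma, adjusted p = 0.00146). Ndufa12, an accessory subunit, fell by 1.41 in cDC and by 1.22 in pDC. Ndufb1, a membrane-arm subunit, measured 8.29 and 8.34 in CDP and 7.04 and 6.14 in pDC. It was the largest decrease of the complex there, -1.72 ± 0.408 (limma, adjusted p = 0.0110). Ndufb8 followed with -1.45.

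Against this direction, Ndufa6 was higher in cDC, with 11.59 and 11.63 against 11.01 and 10.17 in CDP (1.03 ± 0.290; limma, adjusted p = 0.0245). Ndufa3 was higher in both, by 0.57 in cDC and by 0.71 in pDC, but in cDC another of its probe sets gave the opposite sign. Probe sets whose name ends in s_at or x_at may take up more than one transcript. Of the 4 members that rose in cDC, 3 (Ndufa3, Uqcrh and Atp5e) are read from such probe sets, as are all 3 that rose in pDC. Among those that fell this holds for 7 of 45 in cDC and 7 of 41 in pDC, and for 19 of all 90 members.

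The 8 assembly factors of complex I, which build the enzyme but are not part of it, had the lowest median of the 6 groups in both. All 8 fell in cDC (median -1.11) and 6 of 8 in pDC (median -1.19). With the replicate number as a block, 7 were called lower in cDC and 6 in pDC. Ndufaf6 measured 7.71 and 7.93 in CDP, 5.73 and 6.51 in cDC, and 5.59 and 5.57 in pDC, with differences of -1.70 ± 0.267 (limma, adjusted p = 0.00257) and -2.24 ± 0.267 (limma, adjusted p = 0.000610). No dendritic cell array reached the level of CDP. Ndufaf4 fell by 1.59 in cDC and by 1.08 in pDC. Ndufaf2, which is related in sequence to the subunit Ndufa12, fell by 1.24 in cDC and by 1.71 in pDC. Ndufaf3 and Ndufaf8 were the 2 not called in pDC.

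Complex II, succinate dehydrogenase, belongs to both the respiratory chain and the citric acid cycle. All 4 of its genes fell in cDC (median -0.87) and 3 of 4 in pDC (median -0.73). Sdhc, a membrane anchor, measured 9.96 and 9.42 in CDP, 8.59 and 8.71 in cDC, and 8.44 and 8.46 in pDC. Both dendritic cell groups were below CDP, by 1.04 and by 1.24. The iron-sulfur subunit Sdhb fell by 0.95 in cDC (adjusted p = 0.00727 by limma) and differed by -0.50 in pDC, short of the threshold (adjusted p = 0.0649). Sdhd, the other anchor, fell by 0.78 and by 0.83, and the flavoprotein Sdha by 0.63 in each.

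Of the 8 complex III genes, 5 fell and 1 rose in cDC, and 6 fell and 1 rose in pDC, with a median of -0.73 in each. Uqcrq, a small accessory subunit, measured 11.11 and 10.61 in CDP, 9.32 and 8.69 in cDC, and 9.71 and 9.25 in pDC. The groups did not overlap, and the decrease was 1.86 ± 0.288 in cDC (limma, adjusted p = 0.00245) and 1.38 in pDC. Uqcr11 fell by 0.90 in cDC and Uqcrc1, a core protein, by 0.88 in pDC. The hinge protein gene Uqcrh, near which cytochrome c binds, was the one that rose, from 11.76 and 11.26 in CDP to 12.55 and 12.11 in cDC and 12.42 and 12.57 in pDC (0.82 and 0.99).

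In ATP synthase, 7 of 17 fell and 1 rose in cDC (median -0.37), and 6 fell and 1 rose in pDC (median -0.44). The shares lower were 41.2% and 35.3%, the second near the 31.6% of all genes. Atp5b, the catalytic subunit, measured 13.41 and 13.36 in CDP, 12.34 and 12.14 in cDC, and 12.27 and 12.39 in pDC, with differences of -1.14 ± 0.187 and -1.06 ± 0.187. The c ring is encoded by 3 genes with the same mature protein, and these moved unequally. Atp5g1 fell by 1.38 in cDC and by 1.32 in pDC, Atp5g3 fell by 0.78 and by 0.84, and Atp5g2 measured 12.23 and 11.53 in CDP, 11.91 and 11.97 in cDC, and 11.85 and 11.89 in pDC, within the CDP range. Atp5e, the epsilon subunit of the rotor, rose from 10.81 and 10.35 in CDP to 11.71 and 11.32 in cDC and 11.71 and 11.70 in pDC (0.94 and 1.13).

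In complex IV 5 of 13 tested genes fell and none rose in each comparison, with medians of -0.49 in cDC and -0.40 in pDC. The share lower, 38.5%, compares with 29.3% and 31.6% of all genes. Cox5a, Cox6a1, Cox7a2 and Ndufa4, which is now counted to complex IV, fell in both. Cox5a measured 14.23 and 14.65 in CDP and fell by 0.64 in cDC and by 0.99 in pDC. Ndufa4 fell by 1.16 and by 1.33, Cox6a1 by 0.73 and by 0.77, and Cox7a2 by 0.61 and by 0.67. Cox5b fell by 0.61 in pDC, where another of its probe sets gave the opposite sign. Cox4i1, Cox6b1, Cox6c, Cox7c and Cox8a passed the test in neither comparison. Cox4i1, for example, measured 13.82 and 13.64 in CDP, 13.25 and 13.44 in cDC, and 13.82 and 13.64 in pDC.

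**Figure D3:**
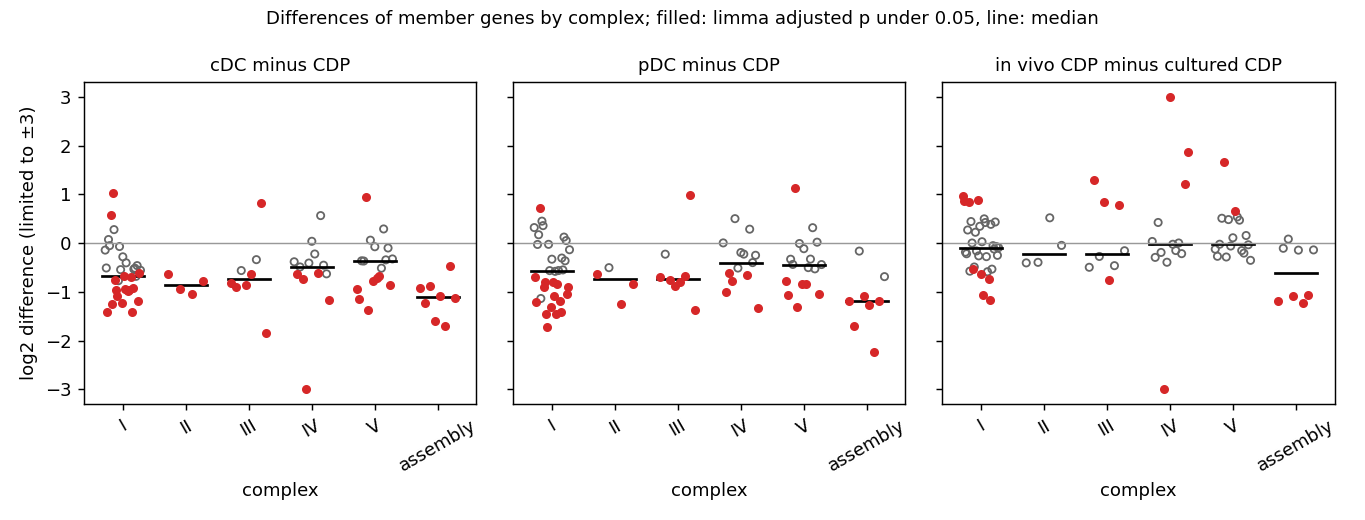
Log2 difference (vertical axis, limited to ±3) of each tested member by complex, for cDC minus CDP, pDC minus CDP and in vivo CDP minus cultured CDP. Filled points passed limma at an adjusted p under 0.05 and lines are medians. The median is below 0 in all 6 groups for cDC (-1.11 to -0.37) and pDC (-1.19 to -0.40), while for in vivo CDP it is -0.60 among the assembly factors and -0.22 to -0.02 in the complexes.

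Other values moved along with the step from CDP to dendritic cells. The summed level of 8 granulocyte markers was 14.2 to 14.8 (log2) in CDP, with 5 of 8 above 5 on both arrays, 7.84 to 7.88 in cDC and 7.72 to 7.99 in pDC, with 1 of 8 (Prtn3) above 5 in each. Elane, which marks neutrophil precursors, was under 5 in all 3 groups. The actin 3′ to 5′ difference was 1.23 and 2.11 on the CDP arrays, 0.69 and 0.84 on the cDC arrays, and 0.84 and 0.94 on the pDC arrays. Their part in the result was not tested. The count in cDC was 30 without cDC replicate 1, 26 without cDC replicate 2 and 27 without CDP replicate 2, and that in pDC was 28 without pDC replicate 2. With only the groups compared in the fit, 31 were called in cDC.

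Few differences were called between the 2 dendritic cells. Of 83, 1 was higher in cDC and 2 were lower, with a median of 0.02, against 12.8% of all genes higher and 12.7% lower, 25.5% in all. Cox6a2 measured 4.62 and 5.09 in cDC and 12.21 and 11.98 in pDC, with no overlap, and differed by -7.24 ± 0.621 in deposited values (limma, adjusted p = 0.000308). The first cDC array was under 5, and with that array raised to 5 the level in pDC was at least 133-fold higher. Ndufs3, a core subunit of complex I, was lower in cDC by 0.61 (adjusted p = 0.0459 by limma, and 0.0557 with the replicate number as a block), with 9.47 and 9.34 against 10.07 and 9.95. The assembly factor Ndufaf7 was higher in cDC by 0.71, with 8.23 and 8.14 against 7.55 and 7.39. Leaving out cDC replicate 2 or either pDC array left 1 call. The differences of the complex V genes were all between -0.19 and 0.18.

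Cox6a2 thus had the widest range of the tested members over the one-cycle groups. In order of mean it stood at 12.10 ± 0.160 in pDC, 11.59 ± 0.915 in CDP, 8.12 ± 1.25 in MPP and 4.86 ± 0.330 in cDC (SD, n = 2). pDC and CDP did not differ beyond their spread (0.50 ± 0.621). In vivo CDP, which are not a one-cycle group, stood at 7.33 ± 0.0535 (SD, n = 2). This lies within 1 SD of MPP, but the labelling kit, extraction kit and amount of RNA differ between the 2. The level in CDP was at least 93.7-fold that in cDC, counted the same way (-6.74 ± 0.621 in deposited values; limma, adjusted p = 0.000341). A second Cox6a2 probe set gave 4.13 for CDP minus MPP, -7.98 for cDC minus CDP, -0.02 for pDC minus CDP and -5.11 for in vivo minus cultured CDP. Cox6a1, in contrast, was called lower in both dendritic cells and differed by 0.04 ± 0.163 between them.

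Genes outside the complexes but of the same organelle were counted from lists. The background over all genes was 29.3% lower and 18.7% higher in cDC, and 31.6% lower and 21.7% higher in pDC. Of 76 tested mitochondrial ribosomal protein genes, 55 fell and none rose in cDC and in pDC (medians -0.90 and -0.87), led by Mrps10 (-2.23) and Mrps22 (-1.92) in cDC. Of 19 import and folding genes, 17 fell in cDC and 14 in pDC. Timm8a1, a chaperone of the intermembrane space, changed by -2.59 in cDC and -3.59 in pDC, and the matrix chaperone gene Hspa9 by -2.59 in cDC. In the citric acid cycle and pyruvate dehydrogenase list 13 of 17 fell in cDC and 15 in pDC, led by Suclg2 (-1.89 and -2.24) and Dlat (-1.71 and -2.17). None rose in these 3 lists in either cell, also at an unadjusted p under 0.05 (limma).

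Of 17 regulators of mitochondrial biogenesis, 10 fell in cDC, and 7 fell and 1 rose in pDC. The coactivator gene Ppargc1b measured 5.98 and 6.89 in CDP and 3.14 and 3.37 in cDC (-3.18), where both arrays were under 5, and fell by 1.85 in pDC. Gabpb1, a partner of the ETS factor GABPA, fell by 1.67 in cDC. Among 35 assembly factors outside the rule, 18 fell and 2 rose in cDC, and 11 fell and 1 rose in pDC, or 51.4% and 31.4% lower, the second at the background of 31.6%, with Cox10 at -2.73 in cDC, where both arrays were under 5, and Coa7 at -2.28 in pDC. Of 10 carriers and channels 4 fell and 1 rose in cDC and 6 fell in pDC, including Vdac3 of the outer membrane (-1.28 and -2.02). Of 5 tested genes of further subunits and cytochrome c, 1 rose (0.59) and 1 fell in cDC, or 20% each. In pDC 3 of them fell (60%) and none rose. Cyc1, the cytochrome of complex III that the naming rule leaves out, fell by 1.34 and by 1.49. The ATPase inhibitor gene Atpif1 fell in pDC (-1.69) and was higher in cDC than in pDC by 1.46.

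Of 18 tested glycolytic genes, 3 rose and 2 fell in cDC (16.7% and 11.1%), and 2 rose and 2 fell in pDC (11.1% each). These shares are below those of all genes, so nothing is read from them for the list. Aldoc, an aldolase, measured 7.32 and 6.02 in CDP, 9.13 and 10.33 in cDC, and 10.08 and 11.18 in pDC. Eno3 rose in both (3.33 and 1.65). The hexokinase gene Hk3 fell in both (-2.46 and -4.02, with both pDC arrays under 5), and had also been lower in CDP than in MPP (-3.23).

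Because many members fell together, the promoters were searched for letters of known regulators of these genes. RefSeq promoters (GRCm38.p6, 250 bases before to 50 after each start) were found for 74 of 90 members, in 79 windows. On either strand, the NRF1 motif, GCGCA followed by its own reverse complement, was in 6 of 79 windows, or 7.59%, against 0.971% of all 32851. CCGGAAG, bound by ETS factors, was in 24.1% against 8.86%. AAGATGGC, bound by YY1, was in 12.7% against 2.75%. For comparison, TATAAA was in 11.4% against 13.6%, and the E-box CAGGTG in 20.3% against 20.2%. A match is a description, not a site. The 3 promoters below, upstream part only, are shown for a complex IV gene called lower in both dendritic cells (Cox6a1), an assembly factor that fell there and under TGF-β1 (Ndufaf4), and the muscle isoform that rose under TGF-β1 (Cox7a1). Capitals mark the NRF1 and ETS letters. Cox6a1 has both, Ndufaf4 the NRF1 letters, and in the window of Cox7a1 neither was found. These were picked to show the letters, not a tie to direction: of 37 members with a promoter that fell in cDC, 4 hold the NRF1 and 9 the ETS letters, against 2 and 10 of 33 that were tested and did not fall. This split leaves out untested members and the windows of a single chromosome, which the 79 windows include.
Cox6a1 (chr5:115348959-115349208, minus strand): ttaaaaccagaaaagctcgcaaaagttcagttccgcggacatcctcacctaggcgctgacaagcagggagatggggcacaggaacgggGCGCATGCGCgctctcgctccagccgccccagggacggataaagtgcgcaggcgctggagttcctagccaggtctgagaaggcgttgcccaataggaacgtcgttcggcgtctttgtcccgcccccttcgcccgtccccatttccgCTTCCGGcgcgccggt
Ndufaf4 (chr4:24897833-24898082, plus strand): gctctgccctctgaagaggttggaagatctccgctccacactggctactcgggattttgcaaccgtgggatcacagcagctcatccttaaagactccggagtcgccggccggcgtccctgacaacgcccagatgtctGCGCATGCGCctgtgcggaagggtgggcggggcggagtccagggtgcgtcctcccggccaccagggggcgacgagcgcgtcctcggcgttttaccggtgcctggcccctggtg
Cox7a1 (chr7:30183921-30184170, plus strand): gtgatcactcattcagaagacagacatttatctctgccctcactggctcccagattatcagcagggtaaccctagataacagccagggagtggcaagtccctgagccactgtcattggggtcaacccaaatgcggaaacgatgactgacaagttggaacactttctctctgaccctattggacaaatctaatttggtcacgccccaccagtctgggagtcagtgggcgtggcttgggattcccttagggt

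Compared with cultured CDP, in vivo CDP had members on both sides. In the fit of 10 arrays, 12 of 83 were higher and 11 lower (median -0.11), or 14.5% and 13.3%, against 27.6% and 19.5% (47.1% in all) of the 9122 genes tested and a median of 0.10. The culture, the labelling kit, the extraction kit and the amount of RNA changed together and cannot be told apart. Without in vivo replicate 2 the count was 12. The Gapdh 3′ to 5′ difference was 0.98 and 0.47 in vivo and -0.15 and 0.19 in culture. All 8 granulocyte markers were above 5 on both in vivo arrays, with a summed level of 14.7 to 15.3 against 14.2 to 14.8 in cultured CDP. The part of these in the result was not tested.

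The 2 isoform genes of complex IV stood out by size. Cox6b2 measured 8.24 and 8.86 in vivo against 3.14 and 2.78 in cultured CDP, at least 11.7-fold higher (limma, adjusted p = 4.93e-06 for the difference in deposited values). Cox6a2 measured 7.37 and 7.29 against 12.24 and 10.95, 19.2-fold lower (-4.26 ± 0.570; limma, adjusted p = 0.000682). Within complex IV, Ndufa4 was higher by 1.88 ± 0.337 and Cox8a by 1.21 ± 0.278, while Cox6a1 (-0.19), Cox4i1 (0.03), Cox6c (-0.02) and Cox7a2 (-0.15) did not pass.

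In the other complexes the calls were mixed. Of all genes 27.6% were higher and 19.5% lower. In complex I the shares were 12.1% and 15.2%, both below these. In complex III they were 37.5% and 12.5%. The share higher was 11.8% in ATP synthase, and the share lower was 50% among the assembly factors. Of the complex I subunits 4 of 33 were higher and 5 lower, with Ndufa1 (0.97) and Ndufb10 (0.88) highest and Ndufs1 (-1.16) and Ndufb6 (-1.06) lowest. In complex III, Uqcr11 was higher by 1.30 and Uqcrc1 by 0.84, and Uqcrc2, the other core protein, lower by 0.76. In ATP synthase Atp5e was higher by 1.67 ± 0.237 (limma, adjusted p = 0.000916), with 12.01 and 12.48 against 10.81 and 10.35, and Atp5j by 0.65. None of the 4 complex II genes was called, with 1 higher and 1 lower at an unadjusted p under 0.05 (limma). Of the 8 assembly factors 4 were lower and none higher (median -0.60): Ndufaf6 (-1.23), Ndufaf1 (-1.19), Ndufaf4 (-1.08) and Ndufaf7 (-1.06).

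In the related lists the shares are set against 27.6% of all genes higher and 19.5% lower. Of 76 mitochondrial ribosomal protein genes 9 were higher and 25 lower in vivo, of 19 import and folding genes 2 and 7, of 17 citric acid cycle and pyruvate dehydrogenase genes 3 and 9, of 35 further assembly factors 2 and 10, of 17 regulators 2 and 4, and of 10 carriers 1 and 4. The share lower was 52.9% for the citric acid cycle list, 36.8% for import, 32.9% for ribosomal proteins, 28.6% for assembly factors and 23.5% for regulators, the last near the background. Ogdh was higher by 2.44 and Idh3a lower by 2.03, though both encode enzymes of the citric acid cycle. Nrf1, the gene of the factor whose motif is described above, was higher by 1.23. Of 18 glycolytic genes 1 was higher (Hk3, 2.00) and 3 lower, with Aldoc at -3.31, both in vivo arrays being under 5.

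Few members were called under TGF-β1. In the fit to the 10 arrays of that series, 88 of 90 members were tested. The median of the members' group means was 11.86 before treatment, 11.46 and 11.94 after 4 and 8 h, and 11.77 and 11.48 after 12 and 24 h. All 4 comparisons share the 0 h arrays. At 4 h no member was called, against 0.569% of all 12656 genes higher and 0.079% lower (0.648% in all), and at 8 h none, against 1.20% higher and 0.348% lower (1.55% in all). At an unadjusted p under 0.05, limma gave 0 members at 4 h, and 1 higher and 2 lower at 8 h. At 12 h 1 fell (Ndufaf6), against 3.68% of all genes higher and 1.68% lower (5.37% in all), and leaving out any one array of 0 or 12 h left none. Blocking on the replicate number, the counts were 0 at 4 h, 1 lower at 8 h (Ndufaf4), and 2 higher and 4 lower at 12 h. Over all 12656 genes the block gave 121 higher and 32 lower at 4 h, 354 and 212 at 8 h, and 951 and 583 at 12 h. Leaving out 4 h replicate 2, so that only the array of low 5′ signal remained at 4 h, gave 16 calls there.

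At 24 h, 2 members were higher and 7 lower. These are 2.27% and 7.95% of 88, against 10.8% and 8.42% of all genes (19.2% in all), so the share lower was near the background. The median was -0.31, against -0.00 over all genes. Replicate 1 of 24 h had low 5′ signal, and 37 of 88 members lay over 0.5 below the 0 h mean on it, against 18 on replicate 2. For all genes these shares were 21.4% and 17.3%. Without the 3 arrays of low 5′ signal the median was -0.14. Such a fit assumes that the lone array of a time varies like the other groups. Over all 12656 genes, calls grew from 1370 higher and 1066 lower to 2051 and 1756 with the replicate block. With the Gapdh 3′ to 5′ difference as a covariate they were 2081 and 1835. The count of called members was 3 higher and 13 lower with the block, and 2 and 14 with the covariate. It was 5 without 24 h replicate 1, 4 without 0 h replicate 1 and 3 without 0 h replicate 2.

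**Figure D4:**
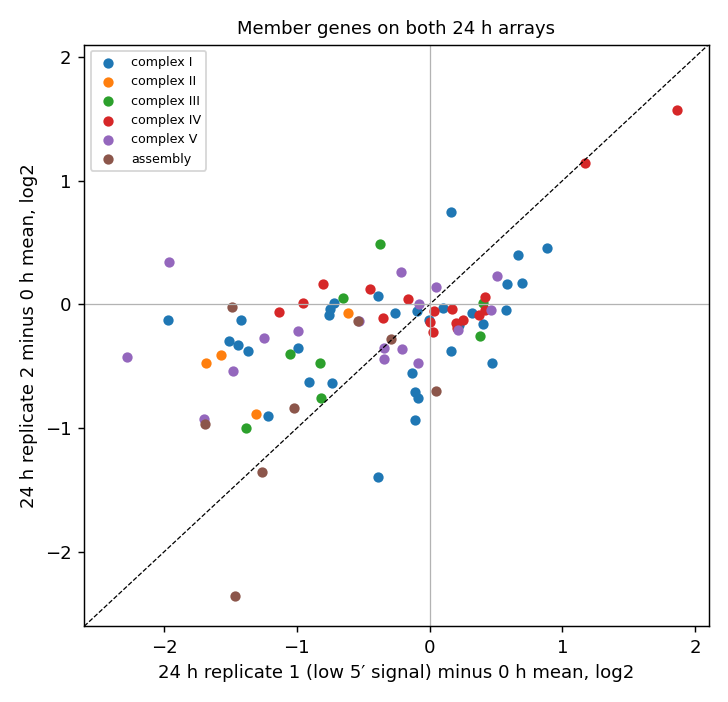
Log2 difference from the 0 h mean of the 88 tested members on 24 h replicate 1 (horizontal, low 5′ signal) and replicate 2 (vertical), coloured by complex, with the line of equality dashed. Points spread further to the left than down, 37 lying under -0.5 on replicate 1 and 18 on replicate 2, and the 2 points at the upper right are Cox7a1 and Cox7a2l.

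By complex, the calls at 24 h were 4 of 8 assembly factors lower (median -0.84), 2 of 33 complex I subunits lower (median -0.34), 1 of 4 in complex II lower (median -1.03) and 2 of 18 in complex IV higher (median -0.00). The share lower in complex I, 6.06%, was below the 8.42% of all genes. The share higher in complex IV, 11.1%, was near the 10.8% of all genes. Only the assembly factors and complex II, the latter with 1 call, had a share lower above that of all genes. In complex III (median -0.47) and ATP synthase (median -0.33) none was called. In complexes III and V, limma at an unadjusted p under 0.05 gave 1 and 4 lower. With the replicate block, 1 in complex III (Uqcrq), 3 in complex V (Atp5b, Atp5g1 and Atp5o) and 4 in complex I were called lower, and 1 in complex I (Ndufb11) higher.

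Ndufaf6 fell with time. It measured 8.95 and 8.82 before treatment, 8.66 and 8.69 after 4 h, 8.15 and 8.43 after 8 h, 8.14 and 8.11 after 12 h, and 7.62 and 7.53 after 24 h, and no array of 8 h or later reached the 0 h level. The difference was -0.76 ± 0.153 at 12 h (limma, adjusted p = 0.0301) and -1.31 ± 0.153 at 24 h (limma, adjusted p = 0.00115).

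Ndufaf4 measured 10.47 and 10.38 before treatment, 11.05 and 9.66 after 4 h, 9.28 and 8.90 after 8 h, 9.39 and 8.85 after 12 h, and 8.96 and 8.06 after 24 h. Every array from 8 h on was lower than both 0 h arrays, and the difference at 24 h was -1.91 ± 0.465 (limma, adjusted p = 0.0246, or 0.00153 with the block). At 8 h it was -1.33 (adjusted p = 0.293, or 0.0373 with the block). Ndufaf5 fell by 1.33 and Ndufaf2 by 0.93 at 24 h.

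Among the subunits that fell, Ndufab1, the mitochondrial acyl carrier protein that is also part of complex I, measured 12.26 and 12.34 at 0 h and 11.09 and 11.40 at 24 h (-1.06 ± 0.168; limma, adjusted p = 0.00425), but another of its probe sets gave the opposite sign. Ndufs1 fell by 0.68, from 10.25 and 10.55 to 9.67 and 9.76. Sdhb measured 12.07 and 12.20 at 0 h and 10.83 and 11.25 at 24 h, without overlap (-1.10 ± 0.226; limma, adjusted p = 0.0124). The other complex II genes did not pass, with differences of -1.07 for Sdhc, -0.99 for Sdhd and -0.34 for Sdha. For Sdhc and Sdhd replicate 1 lay over 1 log2 unit below replicate 2 at 24 h.

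The 2 members that rose belong to the complex IV group. Cox7a1, the isoform known from heart and muscle, measured 5.75 and 5.94 before treatment. It then measured 4.92 and 5.97 after 4 h, 6.51 and 7.06 after 8 h, 7.55 and 7.03 after 12 h, and 7.71 and 7.41 after 24 h. All arrays from 8 h on were above those of 0 h, and the difference at 24 h was 1.72 ± 0.360, or 3.29-fold (limma, adjusted p = 0.0133). The 0 h level lies below the median of all genes at 0 h, 6.34. Cox7a2l, which helps join complexes III and IV into supercomplexes, measured 11.54 and 11.55 before treatment, 12.25 and 12.14 after 12 h, and 12.72 and 12.69 after 24 h (1.16 ± 0.156; limma, adjusted p = 0.00211). For both the 12 h difference was called only with the block (adjusted p = 0.0607 without and 0.0293 with it for Cox7a1, 0.0559 and 0.0286 for Cox7a2l).

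**Figure D5:**
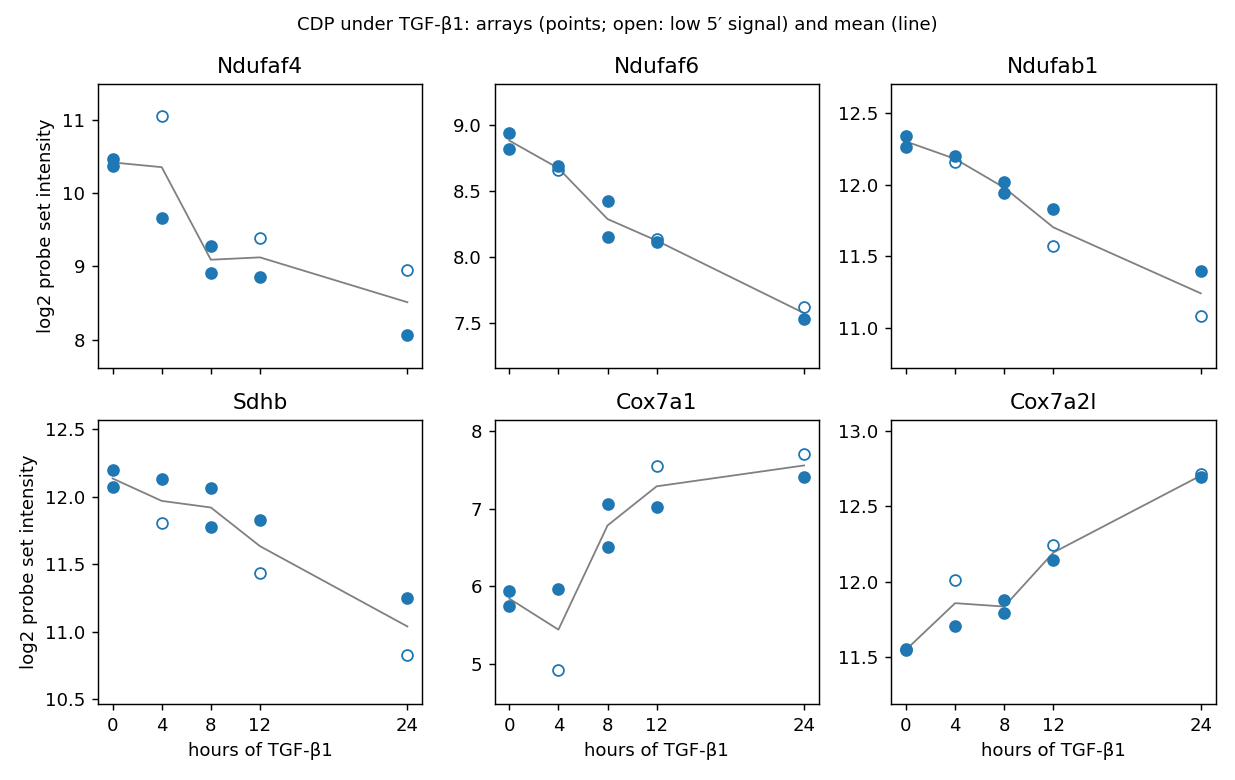
Log2 probe set intensity (vertical axes, not starting at 0) of 6 members against hours of TGF-β1. Points are arrays (open: the 3 of low 5′ signal) and the line joins means of 2. Ndufaf4, Ndufaf6, Ndufab1 and Sdhb end below their 0 h arrays (by 1.06 to 1.91), Cox7a1 and Cox7a2l above them (by 1.72 and 1.16).

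No other complex IV gene was called at 24 h. The differences were 0.03 ± 0.187 for Cox6a1, -0.16 ± 0.249 for Cox4i1, 0.06 for Cox5b, 0.14 for Cox6c, 0.19 for Cox6b1, -0.10 for Cox7a2 and 0.06 for Ndufa4. Cox6a2 measured 11.33 and 11.94 at 0 h and 10.69 and 11.65 at 24 h (-0.47 ± 0.800), with its lowest value, 9.16, on 4 h replicate 1. Cox4i2 (5.62 to 6.37) and Cox8c (7.20 to 7.66) spanned less than 1 log2 unit over all 10 arrays. In the c ring Atp5g1 differed by -1.31 (adjusted p = 0.157 by limma, 0.0319 with the block), Atp5g2 by -0.81 and Atp5g3 by -0.35. Atp5g2 measured 10.25 on 24 h replicate 1 and 12.56 on replicate 2, against 12.06 and 12.37 at 0 h.

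Over all times, the moderated F-test called 4 of 88 members (4.55%), against 9.73% of all genes: Cox7a1, Cox7a2l, Ndufab1 and Ndufaf6. With the block it called 9, against 2580 of all 12656 genes. Leaving out either 0 h array or 24 h replicate 2 left none, leaving out 4 h replicate 1 gave 10 and 4 h replicate 2 gave 21. It called 2 without either 8 h array or without 12 h replicate 1, and 1 without 24 h replicate 1.

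The lists at 24 h are set against 10.8% of all genes higher and 8.42% lower. Of 19 import and folding genes, 10 fell (52.6%) and none rose (median -1.26). They were led by Tomm40, the pore of the outer membrane (-2.56), and Chchd4 (-2.35), which oxidises proteins imported into the intermembrane space. Chchd4 measured 11.46 and 11.27 at 0 h and 9.0 and 9.03 at 24 h, and was called at 8 h and 12 h too (-1.17 and -1.54). Of 76 mitochondrial ribosomal protein genes 16 fell (21.1%), led by Mrps10 (-2.16) and Mrps28 (-1.87). Of 18 citric acid cycle and pyruvate dehydrogenase genes 4 fell (22.2%), with Idh3a at -1.62. None rose in these lists.

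Pprc1, a PGC-1-related coactivator, fell by 1.90 and the mitochondrial helicase gene Twnk by 0.64, the only 2 called of 17 regulators. That share, 11.8% lower, was near the 8.42% of all genes. Of 35 further assembly factors 6 fell (17.1%), led by Lrpprc (-1.27) and Ecsit (-1.23), and Surf1, which assists complex IV, rose by 0.69. Of the 5 tested genes of further subunits and cytochrome c, 2 fell (40%), cytochrome c itself (Cycs, -1.18) and Cyc1 (-0.58), and none rose. None of 10 carriers was called, and limma at an unadjusted p under 0.05 gave 1 lower. Of 20 glycolytic genes 2 fell (Hk3, -1.21, and Pfkp, -0.95) and Aldoc rose, from 8.31 and 8.52 to 10.73 and 11.69 (2.80).

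Along with these changes, the summed level of the 8 cDC markers went from 10.1 to 10.6 at 0 h up to 12.5 to 13.2 at 24 h, and that of the 8 granulocyte markers from 13.5 to 13.8 at 0 h down to 11.5 to 13.0 at 24 h. The lower granulocyte sum at 24 h is that of replicate 1, of low 5′ signal, where Prtn3 measured 11.12 against 12.92 on replicate 2. At 0 h Prtn3 measured 13.18 and 13.35. Ctsg was lower on both 24 h arrays (7.06 and 6.72) than at 0 h (10.86 and 11.67). Above 5 on both arrays were 6 cDC markers at 0 h and 8 at 24 h, and 8 and 7 granulocyte markers. Their part in the result was not tested.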

How the data were processed

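The deposited values are the authors' log2 intensities per probe set, made with GCRMA, per the submitters' processing notes. The sources used here give no version for it. Of 45101 probe sets, a 2016 platform annotation gave 34958 1 symbol and 932 several, and 9211 were unnamed. Probe sets with several symbols were left out, among them 10 that name a member. The members and lists were chosen with earlier results of these data known. The values were used without further scaling.

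Differences are from limma 3.58.1 in R 4.3.3 (lmFit, eBayes, two-sided), in separate fits for the 8 one-cycle arrays, these with in vivo CDP (10) and the TGF-β1 series (10). Genes above 5 on at least 2 arrays of a fit were tested, with Benjamini-Hochberg adjustment over them and a threshold of 0.05. Where an array of the lower group was under 5, it was raised to 5 for the fold ("at least"). Summed marker levels are log2 of summed linear values. No 2 arrays held identical values.

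Named are up to 2 called members per direction, complex and comparison, a fixed list of complex IV, complex II and c ring genes with Atp5b, and up to 2 called genes per list and direction. Others, given for a count of 5 or fewer or as examples, were named after their values were seen. Same-numbered TGF-β1 arrays deviated together (r = 0.27 to 0.85 between times), so blocked values stand beside results whose call they change. Data were simulated with 100 changed genes per size over the 8901 genes of the CDP and MPP comparison. A log2 change of 1 was recovered for 38% and of 2 for 92%, and 14 unchanged genes were called. The simulated noise was independent between arrays, unlike that of the same-numbered arrays above.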

Additional observations from a re-analysis of the deposited data

How the results depend on the processing

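The groups of 2 arrays limit what can be called, and values near 5 are limited by signal over background. Counts of called members moved by over 1.5 times as follows. Without the filter, CDP against MPP gave 1 and cDC against CDP 29, and with only the groups compared in the fit they gave 1 and 31. With an intensity trend, cDC against pDC gave 5. At 8 h, 1 was called with the replicate block, 3 with only the groups compared, 2 with the Gapdh covariate and 3 without the arrays of low 5′ signal. At 12 h, quantile normalization gave 2, raising values under 5 to 5 gave 2, the block 6, only the groups compared 3, the covariate 5 and leaving out the low 5′ arrays 5. At 24 h these were 16 with the block, 16 with the covariate and 21 without those arrays, and for the F-test 9, 14 and 9. Leaving out each array in turn gave 0 to 2 for CDP against MPP, 26 to 43 for cDC against CDP, 28 to 44 for pDC against CDP, 1 to 2 for cDC against pDC, 12 to 26 for in vivo CDP, 0 to 16 at 4 h, 0 at 8 h, 0 at 12 h, 3 to 8 at 24 h and 0 to 21 for the F-test. The cause of these shifts was not tested, beyond the smaller number of arrays. In the one-cycle and in vivo arrays the numbers deviate together in some pairs of groups (MPP and CDP, r = 0.57; cDC and pDC, r = 0.44) and not in others (lowest r = -0.06), so pairing is not settled there. With the number as a block, 4 rose and 45 fell in cDC and 3 and 43 in pDC. Over all 8901 genes these counts were 1760 and 2729 in cDC, and 2027 and 2916 in pDC. The same total in cDC hides shifts: 7 instead of 8 assembly factors fell, 4 instead of 5 complex III genes and 18 instead of 16 complex I subunits. Between cDC and pDC, Ndufs3 lost and Ndufaf3 gained its call with the block (adjusted p = 0.0557 and 0.0343, limma). Of single named genes, 2122 results kept direction and side of the threshold under settings that keep all replicates, 38 lost and 21 gained their call, and none reversed. With an array left out, 877 kept it, 93 lost and 12 gained it.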
